A study of Homo sapiens with 6 samples.

Results

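The 10 human globin genes of the alpha and beta clusters (HBZ, HBM, HBA2, HBA1 and HBQ1 on chromosome 16, and HBE1, HBG2, HBG1, HBD and HBB on chromosome 11) were followed in cells deprived of iron. The members were chosen by gene symbol, by summing the transcripts that GENCODE release 44 assigns to each symbol, and they are 10 of 62252 genes summed in this way. Polyadenylated RNA was sequenced from K562 cells, an established erythroid leukemia line, after overnight treatment with 10 µM 21H7 (Chelator), an iron chelator, or with the same volume of its solvent DMSO, in 3 libraries per group. K562 is a single transformed line that makes embryonic and fetal hemoglobin, so the levels describe that line and not normal red cell precursors. The submitters call the replicates biological but do not say which cultures they came from.

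Hemoglobin pairs alpha-like with beta-like globin chains, each of which holds a heme, and heme needs iron. In each cluster the genes lie on the chromosome in the order in which they are used during development, with the embryonic genes (HBZ and HBE1) nearest to the distant enhancers, then the fetal genes (HBG2 and HBG1) or the genes used from fetal life onward (HBA2 and HBA1), and the adult genes (HBD and HBB) last. Erythroid activators such as GATA1 and KLF1 drive the clusters, and repressors such as BCL11A hold the fetal genes silent in adult cells.

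The libraries held 78.6 to 90.4 M estimated counts in DMSO and 85.4 to 101 M in Chelator. The fragment length read from salmon's effective lengths was 252 to 264 bases in DMSO and 200 to 218 in Chelator, with no overlap, so an effect of shorter fragments cannot be told apart from one of the chelator. The transferrin receptor gene TFRC, a known marker of low cell iron, rose by 2.89 on the log2 scale (SE 0.102, n = 3 per group), and by 2.11 without the length offset and 2.21 with protein-coding transcripts only. The erythroid genes GYPC and GATA1 were abundant in every library, with mean normalized counts (counts divided by size factor and length offset) of 12973 and 17306 in DMSO. Of 11 K562 and erythroid markers, 2 rose, 6 fell and 3 did not pass. Some markers of other blood lineages moved with treatment from low levels. The summed TPM (a level per transcript length, scaled to the same total in each library) of 5 monocyte and granulocyte markers was 11.4 to 12.2 in DMSO and 19.1 to 20.9 in Chelator, and that of 6 lymphocyte markers was 35.2 to 38.6 and 60.9 to 63.4, of which CD3D alone went from a mean of 12.8 to 39.8 and PTPRC from 22.4 to 18.9. Most of the monocyte and granulocyte sum was LYZ, with means of 11.7 and 18.6 TPM, and these 3 genes are named after their values had been seen. That of 6 megakaryocyte markers was 4.46 to 5.10 and 7.58 to 9.21. By the adjusted p, 2 of 4, 3 of 5 and 2 of 3 tested genes of these lists rose, in this order, and 1 lymphocyte marker fell. ELANE, PF4 and MS4A1 had 0 counts in every library. MPO, named after its values had been seen, had 0, 1 and 1 counts in DMSO and 178, 242 and 158 in Chelator. The part of these markers in the globin results was not tested.

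All 10 globin genes together took 1.75% ± 0.0829 (SD, n = 3) of the TPM in DMSO and 2.29% ± 0.0753 in Chelator. Of the 10 genes, 4 rose (HBE1, HBG2, HBG1 and HBZ) and 1 fell (HBQ1) at a DESeq2 adjusted p under 0.05, and 5 did not pass. Over all 24542 genes with an adjusted p, 19.5% rose and 18.3% fell by the same rule. A call needed both this adjusted p and a change of more than 1 on the log2 scale, and 0 of the 10 were called, against 10.8% of all genes. HBM, with under 6 counts in any library, passed the fold but not the adjusted p. The normalized counts of 6 members were higher in every Chelator library than in any DMSO library, and those of 1 were lower, where 25.5% and 23.7% of all genes had no such overlap. Both embryonic genes were among those that rose, and of the 8 members with over 100 counts in every library HBE1 had the highest log2 fold change and HBQ1 the lowest. How many members rose or fell depended on the scaling, as described below. With GC content and length trends removed, only HBE1 rose and 4 members fell. After centring each library on its mean log2 deviation, 3 rose and 2 fell.

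**Figure D1:**
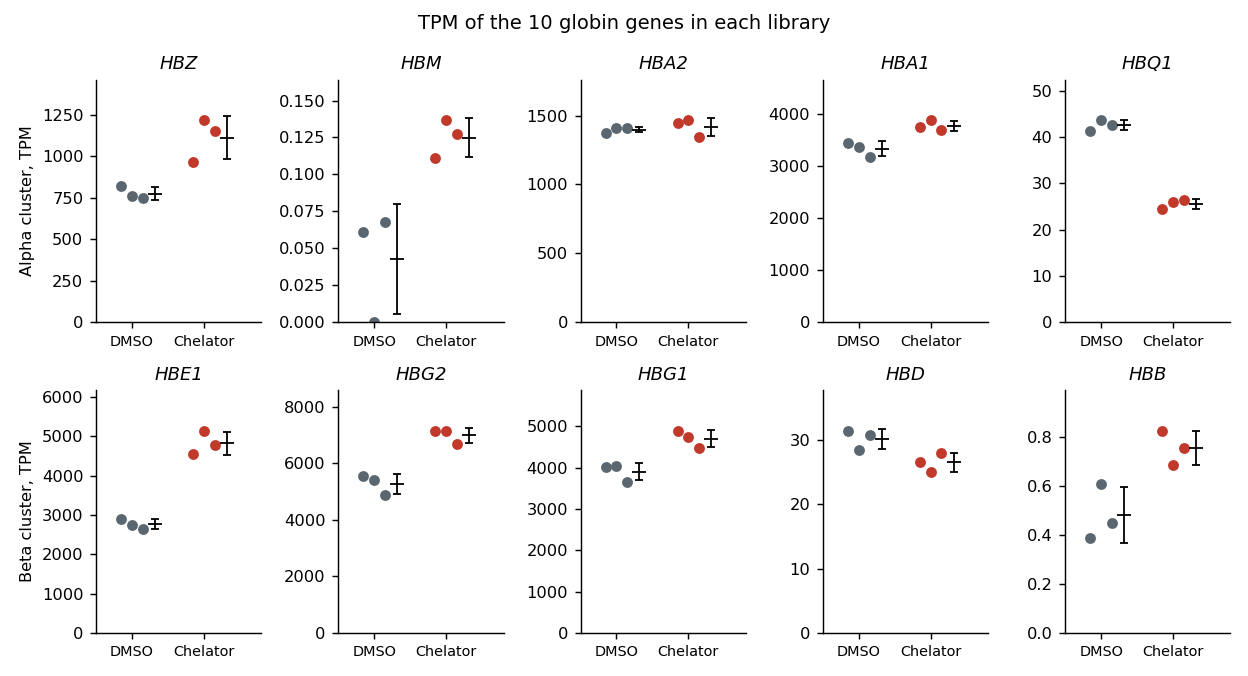
TPM (vertical axis, from 0, a scale per gene) of the 10 globin genes in the 3 DMSO and 3 Chelator libraries; points are libraries in the order of their replicate numbers and bars show the mean ± SD. HBE1 and HBZ were higher in all Chelator libraries and HBQ1 lower, HBA2 overlapped between the groups, and HBB and HBM stayed under 1 TPM.

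In DMSO the members fell into 3 tiers. HBG2 had the highest level at 5274 ± 351 TPM (mean ± SD, n = 3), followed by HBG1 (3905 ± 211), HBA1 (3336 ± 142), HBE1 (2769 ± 132), HBA2 (1398, from 1375 to 1411) and HBZ (774 ± 38.0). HBQ1 (42.5 ± 1.13 TPM) and HBD (30.2 ± 1.58 TPM) lay far lower, and HBB (0.481 ± 0.114 TPM) and HBM (0.0429 ± 0.0373 TPM) were close to absent. No neighbors in this order overlapped between libraries. In Chelator HBE1 stood in the second place at 4825 ± 297 TPM, where its libraries overlapped with those of HBG1 (4702 ± 214 TPM). HBD (26.5 ± 1.43 TPM) and HBQ1 (25.6 ± 1.09 TPM) also overlapped there, and the other neighbors did not.

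Several members are so alike that short reads cannot always be assigned to them. The sequences below show how little separates the fetal pair. HBG1 and HBG2 have a coding sequence of 444 bases in GENCODE release 44, in which 2 bases differ (99.5% identity), written C227T and C410G with the HBG1 base first and positions counted from 1 at the first base of the start codon. Each line gives 41 coding bases around a difference, read on the minus strand of chromosome 11 (GRCh38), with the differing base in capitals. The first pair lies at chr11:5249436-5249476 (HBG1) and chr11:5254360-5254400 (HBG2), and the second at chr11:5248373-5248413 and chr11:5253291-5253331.
HBG1 around C227T: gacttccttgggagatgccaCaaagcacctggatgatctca
HBG2 around C227T: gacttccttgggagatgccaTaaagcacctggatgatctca
HBG1 around C410G: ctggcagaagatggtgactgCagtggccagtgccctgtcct
HBG2 around C410G: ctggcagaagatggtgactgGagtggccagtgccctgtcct
Of the 31-base words in the main transcript of HBG1, 94.3% also occur in a transcript of another gene, and for HBG2 the share is 82.6%. The coding sequences of HBA1 and HBA2 are identical over 429 bases, and 94.1% and 90.8% of the words of their main transcripts are shared, so these copies can be told apart mainly outside the coding sequence. HBE1 shares 83.6% of its coding bases with either fetal gene, and HBZ 68.5% with HBA1. HBQ1 shared no 31-base word with another gene.

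HBE1 (ENSG00000213931.7, chromosome 11, 5268345 to 5505652 with its far upstream starts) encodes the embryonic epsilon chain. Its level was 2910, 2746 and 2649 TPM in the DMSO libraries and 4556, 5143 and 4774 TPM in the Chelator libraries. Every Chelator library lay well above every DMSO library. The log2 fold change of its counts was 0.76 (SE 0.0866, n = 3 per group, DESeq2 adjusted p = 2.5e-17), a 1.70-fold rise with a 95% interval of 1.51 to 1.91. Its adjusted p was under 0.05 with the same sign in each of the 18 alternative fits, where the log2 fold change ranged from 0.55 to 0.92. Of the 31-base words in its main transcript, 87.0% also occur in another gene, among them ENSG00000239920 (chromosome 11, 5254392 to 5678434), annotated across the region. That gene had 1498 to 2005 counts in DMSO and 3133 to 5839 in Chelator, against 70697 to 92010 and 160179 to 200515 for HBE1.

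HBG2 (ENSG00000196565.15, chromosome 11, 5253188 to 5505605) and HBG1 (ENSG00000213934.9, chromosome 11, 5248269 to 5249857) encode the fetal gamma chains. HBG2 had 5547, 5396 and 4879 TPM in DMSO and 7138, 7146 and 6672 TPM in Chelator. HBG1 had 4005, 4046 and 3663 TPM in DMSO and 4891, 4745 and 4470 TPM in Chelator. Neither gene overlapped between the groups. The change was 0.37 on the log2 scale for HBG2 (SE 0.0850, DESeq2 adjusted p = 6.03e-05). For HBG1 it was 0.24 (SE 0.0812, DESeq2 adjusted p = 0.0114). HBG2 did not pass with GC content and length trends removed, as described below (0.19, DESeq2 adjusted p = 0.0845). HBG1 did not pass in 5 alternative fits: without Chelator replicate 1 (DESeq2 adjusted p = 0.0546), without DMSO replicate 2 (0.0609), without DMSO replicate 3 (0.0745) and with both scalings described below. Summed as 1 gene, the gamma copies rose by 0.32 on the log2 scale (SE 0.0829, DESeq2 adjusted p = 0.000581). An overlapping gene that joins both copies, ENSG00000284931 (chromosome 11, 5248270 to 5254783), took 29575 to 35196 counts in DMSO and 39322 to 51661 in Chelator, and with it added the sum rose by 0.29 (DESeq2 adjusted p = 0.00133), an alternative chosen after the data had been seen. HBG2 made up 57.4% ± 0.543 of the gamma TPM in DMSO and 59.8% ± 0.390 in Chelator. These shares did not overlap, although they rest on the few words that differ between the copies.

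HBZ (ENSG00000130656.6, chromosome 16, 142728 to 154503) encodes the embryonic zeta chain of the alpha cluster. It had 817, 758 and 746 TPM in DMSO and 965, 1217 and 1150 TPM in Chelator. The groups did not overlap, and Chelator replicate 1 lay closest to DMSO. On the log2 scale the change was 0.48 (SE 0.0992, DESeq2 adjusted p = 7.27e-06), a 1.40-fold rise with a 95% interval of 1.22 to 1.60. HBZ lost its rise, at -0.0022 (DESeq2 adjusted p = 0.990), when trends of each library with the GC content and length of genes were removed.

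HBA1 (ENSG00000206172.8, chromosome 16, 176680 to 177522) and HBA2 (ENSG00000188536.13, chromosome 16, 172876 to 173710) encode the same alpha chain. HBA1 had 3455, 3374 and 3178 TPM in DMSO and 3755, 3888 and 3694 TPM in Chelator. HBA2 had 1375, 1411 and 1408 TPM in DMSO and 1445, 1467 and 1341 TPM in Chelator. The HBA1 TPM did not overlap between the groups, but its normalized counts did, and HBA2 overlapped in both measures. The log2 fold change was 0.15 for HBA1 (SE 0.0802, DESeq2 adjusted p = 0.147) and -0.013 for HBA2 (SE 0.0809, DESeq2 adjusted p = 0.926). The 95% intervals of the fold were 0.992 to 1.23 and 0.888 to 1.11. For HBA1 and HBA2 the sign, and whether they passed, depended on the scaling, as described below, and without DMSO replicate 1 HBA1 passed at 0.22 (DESeq2 adjusted p = 0.0134). The sum of both copies gave 0.10 (SE 0.0787, DESeq2 adjusted p = 0.343).

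HBQ1 (ENSG00000086506.3, chromosome 16, 180459 to 181179) encodes theta globin, a minor alpha-like chain for which no place in a hemoglobin is established. It had 41.4, 43.7 and 42.6 TPM in DMSO and 24.4, 26.0 and 26.4 TPM in Chelator. All Chelator libraries lay far below all DMSO libraries, the only such case among the members in normalized counts. The log2 fold change was -0.77 (SE 0.108, DESeq2 adjusted p = 2.18e-11), which left 0.588 of the DMSO level with a 95% interval of 0.508 to 0.682. HBQ1 fell at an adjusted p under 0.05 in each of the 18 alternative fits, over a log2 range of -1.25 to -0.55.

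HBD (ENSG00000223609.11, chromosome 11, 5232678 to 5243657) encodes the delta chain, a minor adult chain. It had 31.4, 28.4 and 30.7 TPM in DMSO and 26.5, 25.1 and 28.0 TPM in Chelator. TPM did not overlap between the groups, whereas normalized counts did. The log2 fold change was -0.23 (SE 0.126, DESeq2 adjusted p = 0.158), and without DMSO replicate 2 it was -0.34 (DESeq2 adjusted p = 0.00662). HBD also passed as lower under both scalings described below. It was at -0.38 after centring (DESeq2 adjusted p = 0.0117) and -0.45 with GC content and length trends removed (DESeq2 adjusted p = 0.00187). HBB (ENSG00000244734.4, chromosome 11, 5225464 to 5229395), the main adult beta chain, had 12, 16 and 12 counts in DMSO and 38, 33 and 25 in Chelator. These counts were higher in every Chelator library but very low beside the other members. Its change of 0.64 on the log2 scale did not pass (SE 0.576, DESeq2 adjusted p = 0.425). HBM (ENSG00000206177.7, chromosome 16, 153892 to 166764), the minor mu chain, had between 0 and 5.74 counts in any library, and a change was not detectable at this depth (DESeq2 adjusted p = 0.513).

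The makeup of each cluster was then compared within libraries, where a size factor common to all genes of a library cancels but trends with GC content and length do not. HBE1 held 23.3%, 22.5% and 23.6% of the beta-like TPM in DMSO and 27.4%, 30.1% and 29.9% in Chelator. The fetal pair held 76.5%, 77.3% and 76.1% in DMSO and 72.4%, 69.7% and 69.9% in Chelator. HBE1 thus took a larger part of the beta-like TPM in every Chelator library, by 6.05 percentage points on average, and HBG1 and HBG2 a smaller part although both rose. HBZ held 14.4%, 13.6% and 13.9% of the alpha-like TPM in DMSO and 15.6%, 18.4% and 18.5% in Chelator. HBA1 and HBA2 together held 85.3% ± 0.373 in DMSO and 82.1% ± 1.68 in Chelator. In both clusters the embryonic share was higher in all Chelator libraries, and in the alpha cluster Chelator replicate 1 was close to DMSO. The adult genes HBB and HBD held 0.257% ± 0.0202 of the beta-like TPM in DMSO and 0.165% ± 0.0145 in Chelator. The ratio of summed alpha-like to summed beta-like TPM was 0.455, 0.457 and 0.479 in DMSO and 0.373, 0.387 and 0.390 in Chelator, with no overlap. No test was run on shares and ratios, which are given as a description. The differences in the shares of HBE1, of HBZ and of the fetal pair and in the ratio moved by less than the spread between replicates with estimated counts in place of TPM, with protein-coding transcripts only, and without any single library. They were not recomputed with GC content and length trends removed.

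**Figure D2:**
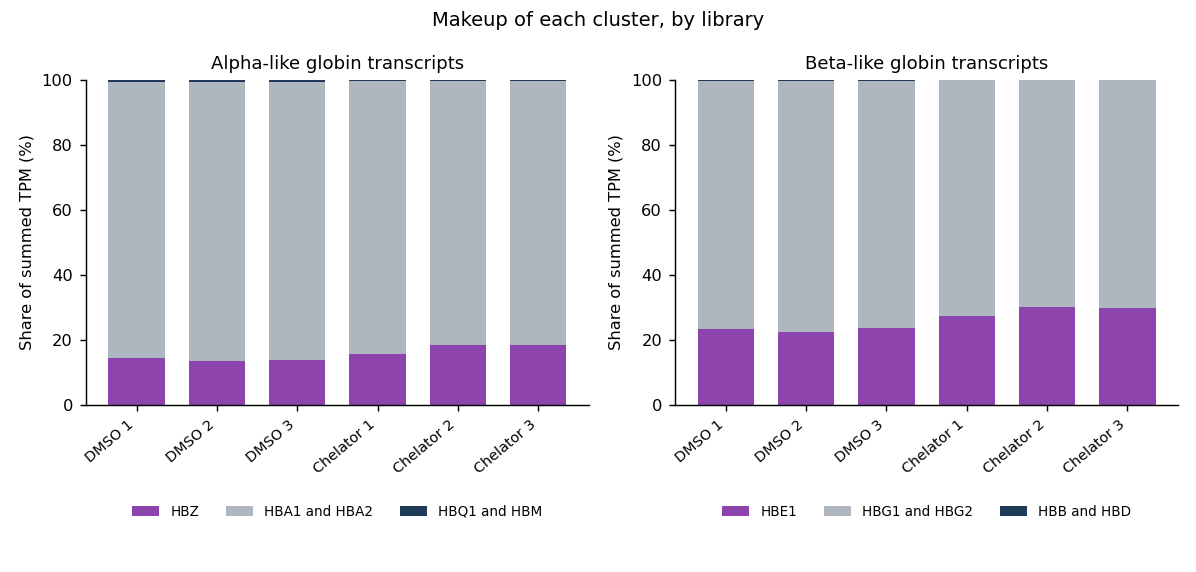
Share of the summed TPM (%, vertical axis) of the alpha-like (left) and beta-like (right) globin genes in each of the 6 libraries (horizontal axis), stacked by developmental class. The embryonic share at the base was 22.5% to 23.6% in DMSO and 27.4% to 30.1% in Chelator for HBE1, and 13.6% to 14.4% and 15.6% to 18.5% for HBZ.

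How far the modest changes stood apart from 0 depended on the scaling. Over the 24542 genes the median log2 fold change was 0.016 under DESeq2's median-ratio scaling, -0.14 after centring each library on its mean log2 deviation and -0.12 when GC content and length trends were removed. The coding sequences of the alpha-like genes had 64.8% to 68.1% GC and those of the beta-like genes 51.2% to 56.1%. With these trends removed only HBE1 (0.55, DESeq2 adjusted p = 3.44e-10) still rose, HBG2 was at 0.19 (DESeq2 adjusted p = 0.0845) and HBG1 at 0.048 (DESeq2 adjusted p = 0.729). HBA2 (-0.43), HBA1 (-0.28), HBD (-0.45) and HBQ1 (-1.25) fell at DESeq2 adjusted p-values of 4.15e-06, 0.0013, 0.00187 and 7.91e-31. Relative to the median of all genes, HBE1 was at 0.75, 0.75 and 0.68 under the 3 scalings, HBZ at 0.47, 0.47 and 0.12, and HBA1 at 0.13, 0.13 and -0.16. The order of the fold changes was also compared. HBE1 lay above HBG2 and HBG2 above HBG1 in all 17 fits that kept the gamma and alpha copies apart. HBZ, HBA1, HBA2 and HBQ1 kept this descending order in the same fits. Fits that differ only in size factors or in the filter shift all members by nearly the same amount. Such fits could hardly change the order, so the 17 are not separate tests of it. Removing GC content and length trends shifts genes by different amounts, and the order held there.

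**Figure D3:**
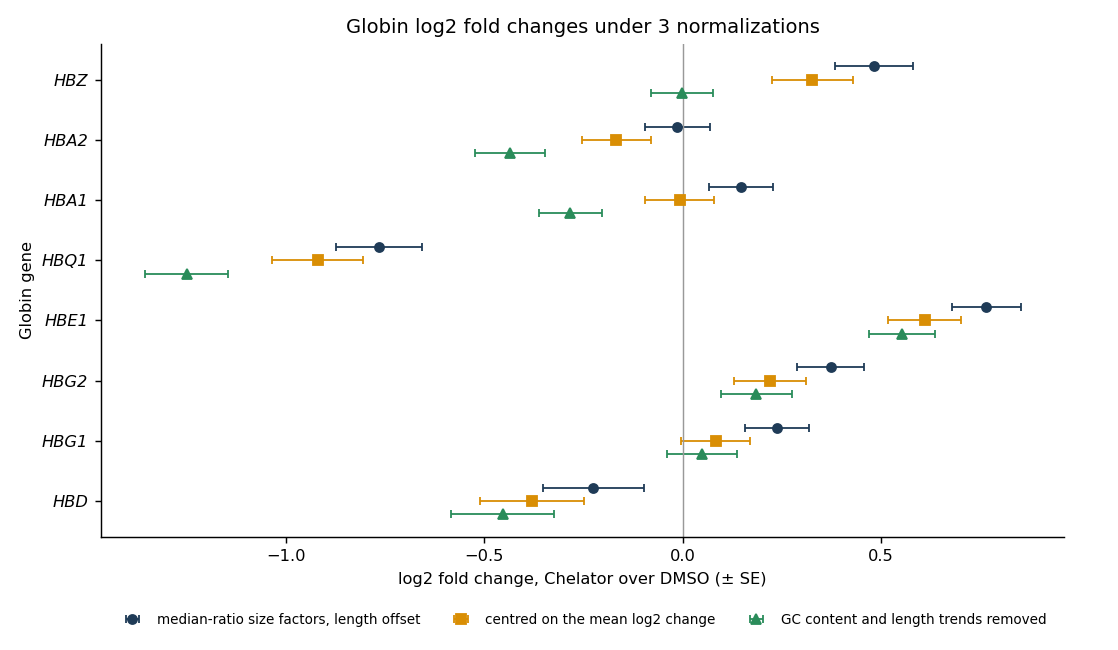
log2 fold change of Chelator over DMSO ± SE (horizontal axis) for the 8 members with over 100 counts in every library (vertical axis), under 3 normalizations. HBE1 lay above 0 and HBQ1 below 0 under each of them, whereas HBZ moved from 0.48 to about 0 and HBA1 from 0.15 to -0.28 with GC content and length trends removed.

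Transcript models showed which starts the counts were assigned to. Of 34 annotated transcripts of the members, 33 were in the files and 5 of those had 0 counts in every library. HBE1-203, which starts at the gene itself, held 93.9% ± 0.223 of the HBE1 TPM in DMSO and 94.9% ± 0.262 in Chelator. HBE1-201 and HBE1-202, which start 235659 to 235707 bases upstream among olfactory receptor genes, held the rest, with 7528 to 9381 counts in DMSO and 13843 to 16071 in Chelator. The share of HBE1-202 was 2.19% ± 0.135 in DMSO and 1.50% ± 0.0982 in Chelator, with no overlap, but edgeR's adjusted p over all transcripts was 0.149. HBG2-202 starts in the same upstream region and held 0.420% to 0.558% of the HBG2 counts. HBA2-202, a model of HBA2 that starts 14 bases downstream of HBA2-201, held 16.8% ± 2.39 of the HBA2 TPM in DMSO and 25.1% ± 1.15 in Chelator (edgeR adjusted p = 0.655). Of the 6 members with at least 2 testable transcripts, none had a changed usage in edgeR's diffSpliceDGE, where the lowest adjusted Simes p was 0.122 (HBE1) and 10.8% of 11938 genes passed. HBA2 passed with limma (adjusted p = 0.0296), HBE1 with edgeR without Chelator replicate 1 (adjusted p = 0.0377), and HBA1 with edgeR without DMSO replicate 1 (adjusted p = 0.00317).

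Nearly all counts of HBD, and all of HBM, were on transcripts that start far from the gene's own first exon. HBD-204 and HBD-203, which start 9174 and 887 bases upstream, held 97.9% to 100% of the HBD counts, and HBD-204 begins beside the pseudogene HBBP1 (chromosome 11, 5242120 to 5243537). From there HBD-204 (5232838 to 5243657) runs across HBBP1 on the same strand. Of its 31-base words, 21.9% also occur in other genes, HBBP1 among them. Whether the HBD counts hold HBBP1 reads was not tested. The few HBM counts were all on HBM-202, which starts 12086 bases upstream within HBZ. Of its 31-base words, 31.1% also occur in HBZ or HBZP1. HBM-201, at the gene's own start, shares 0% of its words and had 0 counts in every library. Whether the HBM counts came from HBZ reads was not tested. These counts are salmon's assignments among overlapping models and not observed starts, so the use of a promoter cannot be read from them. The promoters at which these genes' own transcripts start are shown as a description only. RefSeq promoter sequences (GRCh38.p14) matched 2 of the 10 members, HBD and HBM. The lines give the 120 bases before the start, at chr11:5234484-5234603 on the minus strand and chr16:165858-165977 on the plus strand, with matches on either strand to the motifs named after them in capitals.
HBD promoter: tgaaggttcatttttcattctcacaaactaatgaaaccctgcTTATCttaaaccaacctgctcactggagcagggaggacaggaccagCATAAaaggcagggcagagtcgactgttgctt
HBM promoter: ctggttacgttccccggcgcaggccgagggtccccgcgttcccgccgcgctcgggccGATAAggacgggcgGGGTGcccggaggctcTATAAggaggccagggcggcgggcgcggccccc
GATAA, the core of the sites that GATA factors bind, was found in both, on the reverse strand in HBD. TATAA, the usual TATA box core, was found in HBM and the variant CATAA in HBD. CACCC, the core of sites for KLF factors, was found on the reverse strand in HBM and not in the HBD window. The GATA core and both TATA forms differ in their first letter, so no position matched more than 1 of them. Of 35116 promoter windows of 300 bases, the GATA core occurred in 22.7%, the TATA core in 20.4%, its variant in 23.6% and the KLF core in 59.9%. CCAAT, the motif of the CCAAT box, occurred in 34.6%, in HBD upstream of the stretch shown and not in the HBM window. These matches are descriptions of letters and not of bound sites.

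The untranslated genes of the clusters were examined beside the members. BGLT3, a long noncoding RNA gene downstream of the gamma genes, had 258, 178 and 189 counts in DMSO and 86, 122 and 87 in Chelator. Its groups did not overlap. Its log2 fold change was -1.38 (SE 0.245, DESeq2 adjusted p = 1.25e-07), which passed the fold of a call. HBBP1, a transcribed pseudogene of the beta cluster described here after its values had been seen, fell by 0.72 on the log2 scale (SE 0.154, DESeq2 adjusted p = 1.8e-05). When no length offset was used HBBP1 was at -0.40 and still passed. HBZP1, the zeta pseudogene, had 0 to 2.29 counts in DMSO and 2.84 to 20.5 in Chelator. It was called at 3.77 on the log2 scale (SE 1.58, DESeq2 adjusted p = 0.0458), but the call did not hold in 6 alternative fits, DESeq2 gave no adjusted p in 1 more, and HBZP1 shares words with HBZ. The call was lost without Chelator replicate 2 or DMSO replicate 1 or 3 (DESeq2 adjusted p = 0.120 to 0.156). HBAP1, also named after its values had been seen, had 0 counts in every library.

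Of 7 genes beside the alpha cluster, 3 rose and none fell, by the same adjusted p. The 3, named after their values had been seen, were RHBDF1 (0.95), FAM234A (0.66) and MPG (0.25), which were at 0.57, 0.33 and -0.21 with GC content and length trends removed, while NPRL3, whose introns hold the alpha globin enhancers and which was also named after its value had been seen, was at 0.035 (DESeq2 adjusted p = 0.785). Of 8 tested olfactory receptor genes beside the beta cluster, OR52A5 rose by 1.96 and OR51I1 fell by 1.58 on the log2 scale, with 4 to 39 and 9 to 56 counts in a library and both called (DESeq2 adjusted p = 0.0217 and 0.0474). The OR52A5 call was lost without Chelator replicate 1 or 2 or DMSO replicate 1 or 3 (DESeq2 adjusted p = 0.0629 to 0.137). That of OR51I1 was lost without any 1 Chelator library, DMSO replicate 2 or DMSO replicate 3 (DESeq2 adjusted p = 0.0809 to 0.366), and also with TMM, edgeR, protein-coding transcripts only and total counts (adjusted p = 0.0550 to 0.0614). Of the globins outside the clusters, all given here after their values had been seen, CYGB was at -1.39 (DESeq2 adjusted p = 0.404), NGB had 0 counts, ADGB had 0 to 3 counts, and MB had 0 counts in DMSO and 1, 10 and 2 in Chelator.

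Of 11 genes listed as activators of a globin gene of any stage, 9 fell, 1 rose and 1 did not pass, with a median log2 fold change of -0.40 against 0.016 over all genes. The list was not divided by the stage of the globin genes that a factor acts on. KLF1, the erythroid Krüppel-like factor that binds CACCC sites, had 77.8, 87.4 and 80.7 TPM in DMSO and 47.7, 52.0 and 52.9 TPM in Chelator. Its log2 fold change was -0.72 (SE 0.0701, DESeq2 adjusted p = 4.59e-23). GATA1 had 169, 178 and 164 TPM in DMSO and 151, 163 and 164 in Chelator, which overlapped, and its log2 fold change was -0.13 (DESeq2 adjusted p = 0.149). With GC content and length trends removed it was -0.52 (DESeq2 adjusted p = 4.58e-17), after centring it was -0.28 (DESeq2 adjusted p = 0.00114), and without DMSO replicate 2 it was -0.18 (DESeq2 adjusted p = 0.0144). The activator that rose was ZFPM1, the GATA1 cofactor FOG1, at 0.72 (DESeq2 adjusted p = 4.52e-16). It is named after its value had been seen. With GC content and length trends removed KLF1 was at -1.19 and ZFPM1 at 0.28, and both still passed.

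Of 15 repressors and switch factors of the fetal and embryonic genes, 9 fell, none rose and 6 did not pass, with a median of -0.38. IKZF1 (Ikaros), a switch factor of the beta cluster, had 70.9, 93.9 and 76.1 TPM in DMSO and 29.1, 29.1 and 29.7 TPM in Chelator. It was called at -1.48 (SE 0.0716, DESeq2 adjusted p = 7.89e-92). LIN28B, an RNA-binding protein of fetal cells known to keep fetal globin on, was called at -1.16 (SE 0.0977, DESeq2 adjusted p = 5.57e-31). IGF2BP1 (-0.44) and IGF2BP3 (-0.43), also RNA-binding proteins of fetal cells and named after their values had been seen, fell too. Like LIN28B, they are not repressors of the fetal genes. BCL11A, the main repressor of the gamma genes, had 15.0 to 23.0 counts in DMSO and 4.13 to 14.0 in Chelator, and its change did not pass (-1.23, SE 0.741, DESeq2 adjusted p = 0.195).

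Of 13 genes of heme synthesis, 7 rose, 3 fell and 3 did not pass, with a median of 0.29. ALAS2, the erythroid form of the enzyme of the initial step, had 15.6, 20.8 and 14.7 TPM in DMSO and 35.3, 35.4 and 33.1 TPM in Chelator. It was called at 1.00 (SE 0.0935, DESeq2 adjusted p = 2.75e-25). CPOX, a later enzyme of the pathway, was called at 1.00 (DESeq2 adjusted p = 4.45e-43) and SLC25A37, the mitochondrial iron importer mitoferrin, at 1.06 (DESeq2 adjusted p = 6.43e-42). All 3 lay just above the fold of a call. With GC content and length trends removed ALAS2 was at 0.75, CPOX at 0.81 and SLC25A37 at 0.93, each under that fold. Centring put them at 0.85, 0.85 and 0.90, and protein-coding transcripts alone put CPOX at 0.77 and SLC25A37 at 0.59. Without the length offset CPOX was at 0.86 and SLC25A37 at 0.95. Leaving out single libraries put ALAS2 between 0.94 and 0.99 (without Chelator replicate 1, DMSO replicate 1 or DMSO replicate 3) and CPOX between 0.97 and 0.996 (without Chelator replicate 1, Chelator replicate 3 or DMSO replicate 2). Among the genes that fell were FECH (-0.37), which inserts the iron into heme, and ABCB10 (-0.32), both named after their values had been seen. FECH did not pass with protein-coding transcripts only (-0.18, SE 0.329, DESeq2 adjusted p = 0.675) and was at -0.63 with GC content and length trends removed. AHSP, a chaperone of free alpha chains, had 167, 142 and 140 counts in DMSO and 273, 372 and 254 in Chelator. Its log2 fold change was 0.54 (SE 0.201, DESeq2 adjusted p = 0.0223), and AHSP did not pass in 7 alternative fits, the lowest value being 0.38. Among these were the fits without Chelator replicate 1 or 2 or DMSO replicate 2 or 3 (DESeq2 adjusted p = 0.0563 to 0.131). In its list of 5 genes of heme sensing, heme breakdown and globin folding, AHSP rose, the heme oxygenase gene HMOX2 fell by 0.47 on the log2 scale (named after its value had been seen), 2 did not pass and 1 had no adjusted p.

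Of 7 proteins that bind globin or poly(A) RNA, PCBP4 was called at 1.21 (SE 0.207, DESeq2 adjusted p = 4.71e-08) from 200 to 252 counts in DMSO and 514 to 551 in Chelator. It fell short of the fold of a call with GC content and length trends removed (0.81) and without the length offset (0.96). PCBP1 and PCBP2, named after their values had been seen, poly(C)-binding proteins of the complex that stabilizes alpha globin mRNA and also iron chaperones, fell by 0.35 and 0.25 on the log2 scale (DESeq2 adjusted p = 1.95e-06 and 0.00453). The other 4 did not pass. The lists describe genes beside the globins, and no link between any of them and a globin level was tested.

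**Figure D4:**
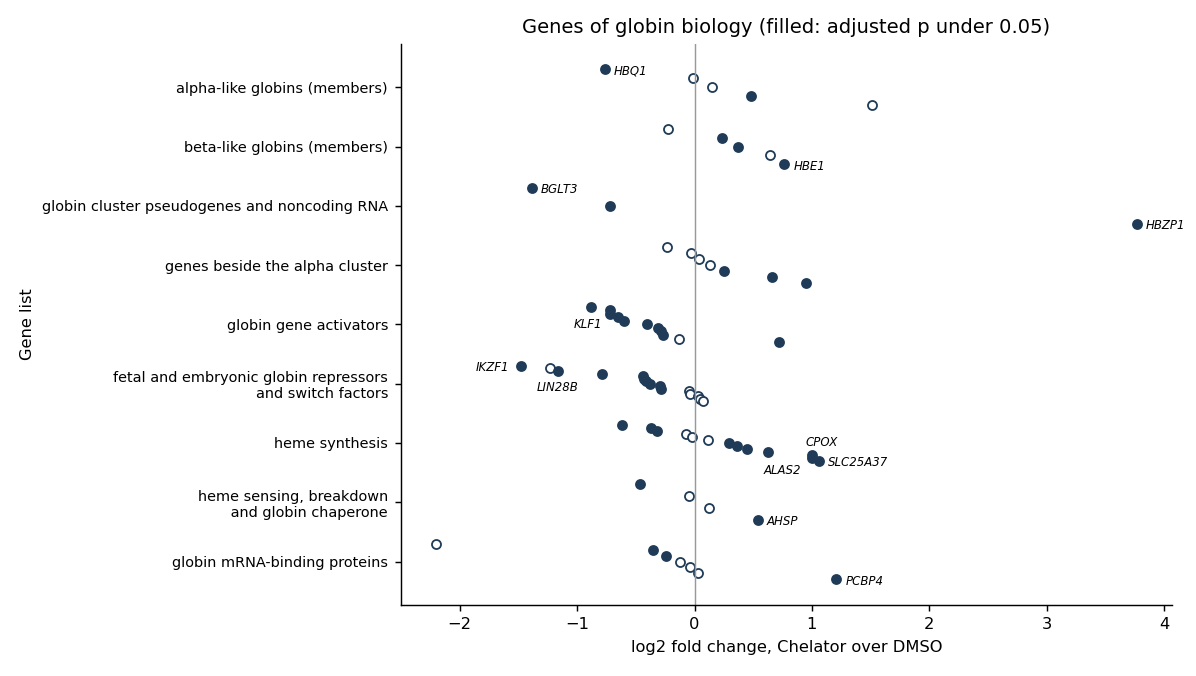
log2 fold change of Chelator over DMSO (horizontal axis) for the tested genes of 9 lists (vertical axis); filled points had a DESeq2 adjusted p under 0.05. Of 11 genes listed as activators 9 lay lower with a filled point, of 15 repressors and switch factors 9, and of 13 heme synthesis genes 7 lay higher.

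By the root mean square difference of log2 normalized counts over the 6 libraries, each centred on its DMSO mean, the genes most like HBG2 among 10340 genes averaging 500 or more normalized counts were ENSG00000291233 (0.0284), EIF4EBP1 (0.0301) and NRBP1 (0.0317). Those most like HBA1 were COX5A (0.0236), RPS3A (0.0286) and CARHSP1 (0.0295). These are descriptions over 6 libraries of 2 groups, with no test.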

How the data were processed

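Paired-end reads of polyadenylated RNA were quantified by the authors with salmon 1.10.2 (per the labels, with hg38 as the build). The transcript annotation was not given in the sources used here. The deposited files give, per transcript, an estimated count and a TPM value with its length and effective length. Groups came from the sample labels.

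Of 252045 transcripts, 251142 matched GENCODE release 44 (GRCh38) by identifier and version and 470 by identifier alone. The 433 unmatched held at most 0.150% of a library's counts and were left out. Counts and TPM were summed per gene, and summed counts were rounded. DESeq2 1.42.0 (R 4.3.3) compared Chelator with DMSO by the Wald test over genes with a total above 10, with median-ratio size factors and each gene's average effective transcript length as an offset, and Benjamini-Hochberg adjustment over the 24542 genes that DESeq2's independent filtering on mean count and its outlier check left with an adjusted p. A gene passed at an adjusted p under 0.05 and was called if the absolute log2 fold change also exceeded 1. Intervals of a fold are normal 95% intervals on the log2 scale and cover the fit only. Transcript usage was tested with edgeR 4.0.16 diffSpliceDGE over transcripts with at least 10 counts in 3 libraries. Alternatives used edgeR's quasi-likelihood test, limma 3.58.1, other scalings (GC content and length trends by mgcv 1.9.3), filters, summed copies, a replicate block and each library left out. Scripts were tested on simulated data.

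The members and lists were chosen with earlier results of these data known. Values are named for all members, for genes of the lists, markers apart, past the call thresholds and for GATA1, KLF1, BCL11A, ALAS2 and AHSP. Other genes of the lists are said to be named after their values were seen. The markers TFRC, GYPC, ELANE, PF4 and MS4A1 carry no such mark and were picked from their lists without a rule. No library was a copy of another, since a chi-square of counts per gene came to 6.54 or more in every pair of the same group. The replicates were uneven. DMSO replicate 2 was at 63.6 and 44.4 from DMSO replicates 1 and 3, which were at 8.53 from each other. Chelator replicate 1 was at 30.0 and 28.1 from Chelator replicates 2 and 3, which were at 6.54. The p-values measure the spread between these libraries, which may be partly technical. Values of some list genes are not reported here.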

Additional observations from a re-analysis of the deposited data

How the results depend on the processing

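HBE1 and HBQ1 kept their direction and an adjusted p under 0.05 under all 18 alternatives, with log2 ranges of 0.55 to 0.92 and -1.25 to -0.55. Summed copies and other filters hardly touch these genes, which stayed at 0.76 and -0.77, so those fits add little. With GC content and length trends removed, 1 globin gene rose, 4 fell, and 59.8% of all called genes were higher, against 75.9% with median-ratio size factors. HBA1 (-0.28), MPG (-0.21) and ENSG00000284931 (-0.055) changed sign there, and HBZ was close to 0 (-0.0022). With libraries centred on the mean log2 deviation, 2 globin genes fell, 61.6% of calls were higher, and HBA1 (-0.0079) and ENSG00000284931 (-0.021) reversed. HBA2, which did not pass, changed sign to 0.032 with TMM and with edgeR, 0.052 with total counts, 0.040 with protein-coding transcripts and 0.17 without the length offset. The sum of HBA1 and HBA2 was at 0.10, which is not a value of HBA2 alone. With a library left out HBA2 lay between -0.085 and 0.028. HBA1 passed with TMM, total counts, protein-coding transcripts, no length offset and without DMSO replicate 1. Leaving out 1 library gave 3 to 5 globin genes that rose and 1 to 2 that fell (2 without DMSO replicate 2). It gave 633 to 1221 genes with changed transcript usage (701 without Chelator replicate 2 and 633 without Chelator replicate 3), against 1295 with all libraries, and 0 to 1 globin gene among them. Limma gave 3868 such genes, of which 1 was a globin gene. The cause of these shifts was not tested.

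Same-numbered libraries did not deviate together (r = -0.018, 0.085 and 0.036 over 20144 genes), so the numbers were not read as pairs. With the replicate number as a block, 4 globin genes rose and 1 fell, and 2345 genes were called, against 2646. Among the genes named, AHSP, HBZP1, OR52A5 and OR51I1 did not pass with the block. HBB, HBM and BCL11A had few counts. The split of counts between HBA1 and HBA2 and between HBG1 and HBG2 is limited by shared sequence.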
